A study of Rattus norvegicus with 15 samples.

Results

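The genes of the Fgf, Bmp and Tgfb, Wnt and Notch pathways were examined in the olfactory epithelium of adult rats. Members were taken by name from the array's own gene column: every probe other than a control whose gene name begins with Fgf, Bmp, Wnt, Fzd, Notch, Dll, Jag, Hes, Hey, Tgfb, Gdf, Inhb, Sfrp or Dkk, with the number or letter that follows these stems in the family. This gave 146 probes of 113 genes, out of 41012 probes and 35561 names on the array. The rule uses names alone, but it was set with earlier results of these data known.

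RNA came from dissected olfactory epithelium of 8 Brown Norway rats aged 6 weeks, 4 males (rats 1, 2, 5 and 6) and 4 females (rats 3, 4, 7 and 8), with no treatment or genetic change named in the labels. Each nostril, lettered A or B, was hybridized to an array of its own, except that male 1 had nostril A alone, which left 7 male and 8 female arrays. The labels and the study's methods give the dropped sample as the left one of a male from Elevage Janvier, which makes the array of male 1 its right side. They do not say which side the letters stand for in the other rats, nor the supplier of each of these, so sides were compared as A and B and suppliers were not analysed here. The study bought 2 males and 2 females from each of 2 suppliers. The 15 arrays lay on 4 slides. Males 1 and 2 shared slide 1 with array 3A, the first array of female 3. The second, 3B, lay on slide 2 beside those of female 4, and males 5 and 6 took slide 3 and females 7 and 8 slide 4. The dissected tissue mixes cell types, and fewer cells of a type cannot be told apart from less RNA per cell. Omp, the marker of mature olfactory neurons, lay between 7.40 and 7.65 on the log2 scale in the 8 rats, and Cyp2g1 of the sustentacular (supporting) cells between 8.83 and 9.31. The basal cell keratin Krt14 was above background on 0 arrays, while Krt5 and Tp63 were not found by name.

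All 4 pathways carry signals between neighbouring cells. Fgf, Bmp, Tgfb and Wnt ligands are secreted and bind receptors on the cell surface (Fgf receptor kinases, Bmp and Tgfb receptor kinases, and Frizzled receptors), whereas the Notch ligands Delta and Jagged sit in the membrane of one cell and activate Notch on the next, which switches on the repressors of the Hes and Hey families. In the olfactory epithelium, which makes neurons throughout life, these pathways are known for setting how many progenitors divide and which become neurons. Fgf2 promotes progenitor division there, and Gdf11 restrains it.

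Each member was read by probes of 60 bases whose letters decide which transcript and which end of it was measured. The sequences shown are those of the probes on which the results below turn: the 4 that differed between rats, the repressors with the smallest p between the sexes, and pairs from 5 of the genes whose probes gave different calls or different patterns over the rats, chosen after their values were seen. They are given from the 5′ to the 3′ end, whole, or as the first 30 bases where the probe may lie outside the coding part. Capitals mark the letters AATAAA, known as the hexamer before the cleavage site of most messenger RNAs. This is a match of letters and not a site, and in the Hes1 probe, which reads coding sequence, the letters are part of codons. This hexamer or its variant ATTAAA, on the printed strand, was present in 6 member probes (4.11%) and in 2794 of all probes (6.81%). Positions are those of the array's annotation on rat build rn3, which names a gene for each probe but no exon.
Fgf17, A_43_P11972, chr15:51054366-51054425, minus strand: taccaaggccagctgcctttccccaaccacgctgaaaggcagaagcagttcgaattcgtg
Bmp2, A_44_P1013851, chr3:121286700-121286759, plus strand: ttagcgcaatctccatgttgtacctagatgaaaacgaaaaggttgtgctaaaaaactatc
Tgfb3, A_44_P125025, chr6:110177387-110177446, minus strand, first 30 bases: gacaatctgttcttttgcaaacagtctttt
Gdf5, A_44_P306581, with no position given: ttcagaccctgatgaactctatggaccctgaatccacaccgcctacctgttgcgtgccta
Hes1, A_44_P435739, chr11:72662727-72662786, minus strand: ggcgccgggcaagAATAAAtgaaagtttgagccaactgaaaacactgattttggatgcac
Hes5, A_43_P12436, chr5:171774881-171774940, plus strand: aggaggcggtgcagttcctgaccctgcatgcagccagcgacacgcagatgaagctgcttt
Fgfr1, A_44_P475197, chr16:70870412-70870577, minus strand: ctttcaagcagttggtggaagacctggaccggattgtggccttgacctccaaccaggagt
Fgfr1, A_44_P264628, chr16:70880532-70880591, minus strand, first 30 bases: agtgcctgcgatttgggctcagctttaccc
Bmpr1a, A_44_P455656, chr16:10073098-10073157, minus strand: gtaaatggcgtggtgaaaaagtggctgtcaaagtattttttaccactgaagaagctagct
Bmpr1a, A_44_P357470, chr16:10062309-10062368, minus strand, first 30 bases: ggagtctttgttctcggtacctcttaaaaa
Inhbb, A_44_P288117, chr13:32176245-32176304, minus strand: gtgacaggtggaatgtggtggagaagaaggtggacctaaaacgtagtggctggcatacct
Inhbb, A_44_P576822, chr13:32173882-32173941, minus strand, first 30 bases: tttAATAAAgccctccttaggttctgtttc
Fzd7, A_42_P648800, chr9:58214678-58214737, plus strand, first 30 bases: aatgccaaccaggggggtactgtcaggagt
Fzd7, A_44_P171337, chr9:58211772-58211831, plus strand, first 30 bases: ccccgtgtgagccaggccgtgctaacggcc
Hey2, A_44_P458999, chr1:27516726-27516785, plus strand, first 30 bases: gtctgcagcctccagtcctcagcagacaag
Hey2, A_44_P778356, chr1:27518013-27518072, plus strand, first 30 bases: taaacattatgcaaagttatactcataaat

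A probe was called expressed when its signal was well above background on at least 11 of the 15 arrays, weakly expressed on 1 to 10, and not expressed on 0. By the probe of each gene seen on most arrays, 77 of the 113 genes counted as expressed, 19 as weakly expressed and 17 as not detected on any array. Among the 146 probes, 99 were expressed (67.8%), which is near the 65.1% of all probes on the array, 24 were weakly expressed (16.4%, against 11.1%) and 23 were not (15.8%, against 23.8%). On all 15 arrays, 93 member probes were above background. The median share of G and C letters was 45.0% in the expressed members, 54.2% in the weakly expressed and 51.7% in those not expressed, and over all probes 43.3% in the expressed and 40.0% in those not expressed. No member spot was saturated.

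**Figure D1:**
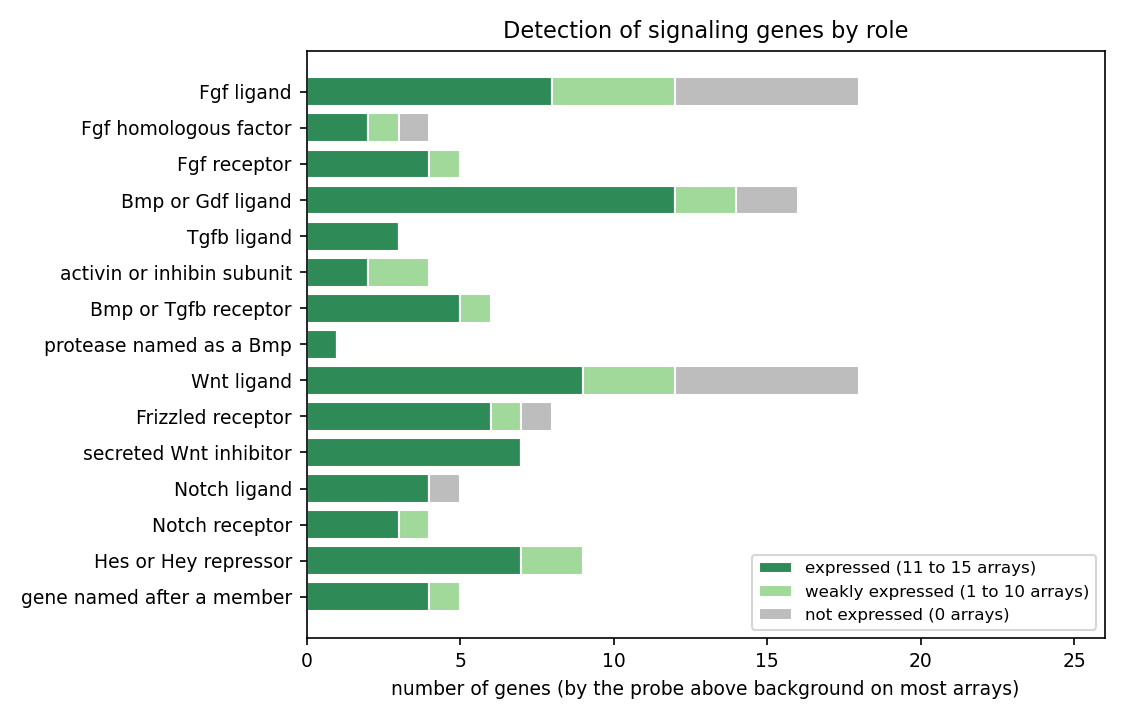
Number of genes in each role (horizontal axis, genes) split by detection: expressed on 11 to 15 arrays, weakly expressed on 1 to 10, and not expressed on 0. The genes in the row of secreted Wnt inhibitors (Dkk and Sfrp families) and the Tgfb ligands were all expressed, whereas 6 Fgf ligands and 6 Wnt ligands were not above background on any array.

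Among the 18 secreted Fgf ligands, 8 were expressed (Fgf1, Fgf2, Fgf9, Fgf16, Fgf18, Fgf20, Fgf21 and Fgf22), 4 weakly (Fgf5, Fgf7, Fgf10 and Fgf17) and 6 were not (Fgf3, Fgf4, Fgf6, Fgf8, Fgf15 and Fgf23). Fgf8, a ligand known from the embryonic nose, and Fgf15 and Fgf23, hormones of the bile acid and phosphate systems, were thus among those below background. Of the intracellular relatives that bind sodium channels and no receptor, Fgf12 and Fgf13 were expressed, Fgf11 weakly, and Fgf14 was not. On the receiving side, Fgfr1, Fgfr2, Fgfr3 and the decoy Fgfrl1 were expressed and Fgfr4 was above background on 6 arrays.

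In the Bmp and Tgfb branch, 12 of 16 Bmp and Gdf ligands were expressed, Gdf6 and Gdf8 (myostatin, the muscle growth inhibitor) weakly, and Bmp15 and Gdf9, ligands of the egg cell, were not. All 3 Tgfb ligands were expressed. Of the activin subunits, Inhba and Inhbb were expressed and Inhbc and Inhbe, known from liver, were above background on 2 arrays and 1 array. The receptors Bmpr1a, Bmpr1b, Bmpr2, Tgfbr1 and Tgfbr2 were expressed, and the co-receptor Tgfbr3 was above background on 8 arrays. Bmp1, which is named as a Bmp but is the protease that trims procollagen, was expressed on all 3 of its probes.

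Of 18 Wnt ligands, 9 were expressed (Wnt2b, Wnt4, Wnt5a, Wnt5b, Wnt6, Wnt7a, Wnt7b, Wnt10a and Wnt11), 3 weakly (Wnt1, Wnt2 and Wnt9a) and 6 were not (Wnt3, Wnt3a, Wnt8a, Wnt8b, Wnt9b and Wnt10b). The Frizzled receptors were expressed for Fzd1, Fzd2, Fzd3, Fzd4, Fzd7 and Fzd9, weakly for Fzd5 on 1 array, and not for Fzd6. All 7 genes of the secreted Dkk and Sfrp families, most of which keep Wnt proteins or their co-receptor from signaling, were expressed: Dkk1, Dkk3, Dkk4, Sfrp1, Sfrp2, Sfrp4 and Sfrp5. Dkk4 was so on the minimum of 11 arrays.

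For Notch, the ligands Dll1, Dll3, Jag1 and Jag2 were expressed and the endothelial ligand Dll4 was not. Notch2, Notch3 and Notch4 were expressed, while Notch1 was above background on 6 arrays (1A, 2A, 2B, 3A, 7A and 8B), 3 of each sex. Its log2 signal lay between -3.13 and -1.74 with a median of -2.35, so Notch1 entered no test. Among the repressors, Hes1, Hes5, Hes6, Hes7, Hey1, Hey2 and Heyl were expressed, and Hes2 and Hes3 were each above background on 1 array. Of 5 genes merely named after a member (Bmp2k, Fgfr1op2, Tgfb1i1, Tgfb1i4 and Tgfbrap1), 4 were expressed and Tgfbrap1 weakly.

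Of the weakly expressed genes seen on at least 3 arrays, Fgf5, Fgf7 and Fgf11 were above background in one sex alone, and they are named for this. Fgf7, a ligand made by connective tissue for epithelia, was above background on 5 female arrays (3B, 4A, 4B, 8A and 8B) and 0 male arrays. Fgf5 was above background on 3 male arrays (2A, 5B and 6B) and 0 female arrays, and Fgf11 likewise on 3 male arrays (2A, 2B and 5A) and 0 female arrays. That is 3 of 13 member probes seen on 3 to 10 arrays (23.1%), against 10.7% of the 2184 such probes of the array. These probes were below the 7 arrays needed for a test, and their difference between the sexes was not tested.

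Members that neighbour each other on the genome could be compared in their calls. Within 100 kb on rn3, the trio Fgf3, Fgf4 and Fgf15 on chromosome 1, Wnt3 and Wnt9b on chromosome 10 and Fgf6 and Fgf23 on chromosome 4 were above background on 0 arrays throughout. Wnt3a (0 arrays) lay 55.7 kb from Wnt9a (2 arrays), Wnt10b (0 arrays) 16.7 kb from Wnt1 (1 array), and Inhbc (2 arrays) 8.01 kb from Inhbe (1 array). Wnt6 and Wnt10a on chromosome 9 were the neighbours in which both genes were expressed. These pairs are a description, since members of one cluster are not independent.

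Different probes of a gene did not always give the same call. Of 25 genes with more than 1 probe, 9 had probes with different calls. Fgfr1 was above background on 15 arrays by one probe, whose letters span 166 bases of the genome and so cross an intron, and on 1 array by the other. The 4 probes of Fgfr2 were above background on 15, 15, 8 and 3 arrays. Fzd7 and Hey2 each had 1 probe on 15 arrays and 1 on 0 arrays. For Sfrp4 and Dkk4 the probe on 0 arrays carried a description of another kind, "frizzled related protein" for the first and similarity to Dickkopf-related protein 2 for the second. Wnt10a (15 and 7 arrays), Wnt7a (15, 11 and 10 arrays) and Wnt2 (1 and 0 arrays) completed the 9.

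Levels are given as log2 of the signal divided by the median signal of the same array, so that 0 is the array's median probe and values are comparable between arrays but not between probes. Signals under 0.1 of the median were set to that floor, which is -3.32. Of the member probes, 105 were above background on at least 7 arrays and were tested together with all other such probes of the array. The median signal ranged from 57.4 to 83.4 intensity units over the 15 arrays and the number of probes well above background from 26228 to 28730, of which 98 to 110 were members. Array 4B gave the lowest value of the 15 for 27 member probes (25.7%), against 11.5% of all tested probes. The count that rests on it is given without rat 4 as well.

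The first comparison asked whether a member differed between males and females. At a false discovery rate of 1%, 0 of 105 member probes differed, with 12 probes (0.0434%) called over the array. At 5% the count of members was also 0, with 0.0724% of all probes. Sex is largely tied to slide. With slide as a random block, a fit that takes arrays rather than rats as its units, 2 members (1.9%), Hes1 and Tgfb2, passed 5% against 3.59% of all probes. At an unadjusted p under 0.05 there were 15 (14.3%), 9 higher in females and 6 higher in males, against 17.1% of all probes tested. The median difference over the members, female minus male, was -0.07 on the log2 scale and 0.01 over all tested probes.

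Hes1, a repressor switched on by Notch and known from supporting cells, had the smallest p. Its rat means were 2.14, 2.38, 2.37 and 2.63 in males 1, 2, 5 and 6, and 2.94, 2.90, 2.87 and 2.67 in females 3, 4, 7 and 8. All females lay above all males, although male 6 and female 8 were close to each other. The difference was 0.46 (SE 0.11) with an adjusted p of 0.109, which was 0.0328 with slide as a random block and 0.0913 with slide as a fixed block. Within slide 1, the only slide with both sexes, nostril A of female 3 lay 0.52 above the mean of the 3 male arrays. The summed signal of the sustentacular markers (2 of 5 on the array, both expressed, Cyp2g1 and Sult1c2) lay between 8.83 and 8.97 on the log2 scale in males and between 9.10 and 9.31 in females. Its part in the Hes1 difference was not tested.

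Hes5, a repressor known from neural progenitors, pointed the other way. Its rat means were 2.71, 3.48, 3.00 and 2.95 in males 1, 2, 5 and 6, and 1.80, 1.70, 2.22 and 2.70 in females 3, 4, 7 and 8. The sexes did not overlap, but male 1 and female 8 were nearly equal. The difference was -0.93 (SE 0.23) with an adjusted p of 0.115, and within slide 1 it was -1.29. In female 4 the nostrils gave 2.61 (A) and 0.80 (B), a gap of 1.81 that exceeds the difference between the sexes. Leaving out each rat in turn gave differences from -1.13 to -0.78, and leaving out rat 4 gave -0.79. The summed level of the markers of ensheathing and Schwann cells (5 of 6 on the array, 4 expressed, S100b above background on 0 arrays) lay between 8.49 and 9.29 in males and between 7.82 and 8.62 in females. Fabp7 of this list gave 8.42 in nostril A and 6.51 in nostril B of female 4. Such a fall was not particular to this list, as Kdr of endothelium went from 4.78 to 3.75 and Lum of fibroblasts from 3.56 to 2.53. Omp stayed level (7.39 and 7.40), and Dnah9 of ciliated cells rose from 4.88 to 5.65. The part of ensheathing and Schwann cells in the Hes5 difference was not tested.

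Dkk4, an inhibitor of the Wnt co-receptors, was near the limit of detection, with rat means of -1.78, -1.68, -1.45 and -1.71 in males 1, 2, 5 and 6 and of -2.08, -2.53, -2.37 and -2.03 in females 3, 4, 7 and 8. It was above background on 6 of 7 male and 5 of 8 female arrays. The measured difference of -0.60 (SE 0.15, adjusted p 0.122) rests in part on values below detection, so it is not an exact difference. With normexp background correction, run with an offset of 50 units that narrows differences of dim probes, it was -0.09. The nostrils of one rat lay farther apart than -0.60, with -1.63 (A) and -3.11 (B) in female 7. For Fgf2 the dimmer of 2 probes (A_43_P12014) gave -3.01, -2.40, -2.48 and -2.24 in males 1, 2, 5 and 6 and -2.11, -1.76, -1.89 and -1.84 in females 3, 4, 7 and 8. It was above background on 3 of 7 male and 8 of 8 female arrays, and its measured difference of 0.64 (SE 0.18) had an adjusted p of 0.142. The probe reached the 7 arrays needed for a test mainly through the females, and most male values lie below detection, so 0.64 is not an exact difference. With normexp it was 0.12. The brighter Fgf2 probe (A_44_P212850) differed by 0.25 (SE 0.12, adjusted p 0.317), with females 7 and 8 (both 1.53) below male 2 (1.62).

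**Figure D2:**
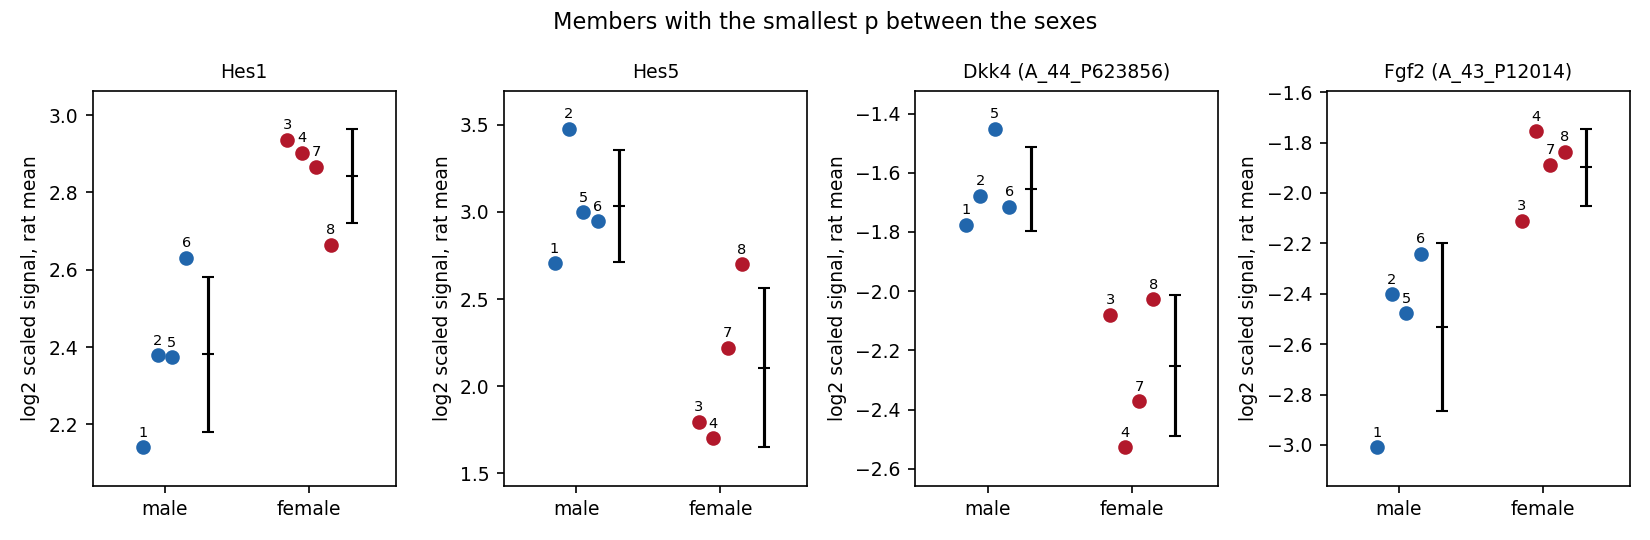
Rat means of the 4 member probes with the smallest p between the sexes (vertical axes, log2 scaled signal; points are rats labelled by number, bars the mean ± SD, n = 4 per sex). Hes1 and Fgf2 lay higher and Hes5 and Dkk4 lower in the females, with Fgf2 above background on 3 of 7 male arrays, and none passed a false discovery rate of 1%, the smallest adjusted p being 0.109.

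Jag1, a Notch ligand, had the males at 5.14, 5.19, 4.83 and 4.86 and the females at 5.30, 5.28, 5.25 and 5.28, with an adjusted p of 0.170. Fzd3, a Frizzled receptor, was 0.44 higher in females (adjusted p 0.164). In both, the sexes did not overlap, yet neither passed the threshold. For these and for Hes1 and Hes5 the lack of overlap is a description only, since its share over all tested probes was not counted.

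The second comparison asked whether the nostrils of a rat differed, over the 7 rats with both. By limma 0 of 105 members passed 1%, as did 0% of all probes. At an unadjusted p under 0.05 there were 8 members (7.62%) against 5.89% of all. Hes1 was higher in nostril B in 7 of 7 rats, by 0.16 on average. The other members with the smallest p were Inhbb by probe A_44_P288117 (0.40, higher in B in 6 of 7 rats), Gdf6 and Wnt7a by probe A_44_P135238 (-0.54, higher in B in 2 of 7). Gdf6 was above background on 5 arrays of nostril B and 2 of nostril A, on neither array of rats 6 and 7, and so entered the test mainly through nostril B. Its measured difference of 0.55 is not an exact one. All 4 had an adjusted p of 0.781. With normexp the differences were smaller, 0.03 for Hes1, 0.14 for Inhbb, 0.14 for Gdf6 and -0.19 for Wnt7a. A difference between the sexes in this contrast was also tested, with 0 members and 0% of all probes past 1% and with 7 members (6.67%) at an unadjusted p under 0.05, against 2.37% of all probes.

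The third comparison asked whether rats of one sex differed by more than the nostrils of a rat do. It used the 6 contrasts between rats of one sex, with the spread between nostrils as the error. Ranges over the rats given below span both sexes, which these contrasts do not compare. At 1%, 4 of 105 member probes differed (3.81%) against 2.79% of all probes. At 5% there were 21 (20.0%) against 16.1%, and at an unadjusted p under 0.05 there were 44 (41.9%) against 37.1%. The median spread between nostrils was 0.18 over the members and 0.12 over all probes. The rat is tied to the slide, and nostrils share a slide in every rat but female 3. Leaving out rats 1 to 8 in turn, the count at 1% was 3, 2, 5, 1, 1, 2, 1 and 1, and the 1 without rat 4 was Fgf17. With slide as a block, 0 members passed 1% or 5%, at which 0.00363% and 0.116% of all probes passed, and 19 members (18.1%) had an unadjusted p under 0.05 against 17.1% of all probes. The rat and the slide can be told apart only in part. Rats of one sex also came from 2 suppliers, and a supplier difference cannot be told apart from a rat difference in these contrasts.

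Fgf17, a ligand of the Fgf8 group, had the widest range of measured rat means. In the males its values were -1.30 in rat 1 (A alone), -2.76 and -3.32 in rat 2 (A and B), -0.90 and -1.45 in rat 5, and 0.09 and 0.26 in rat 6. In the females they were -3.32 and -2.57 in rat 3, -1.08 and -0.70 in rat 4, -3.24 and -3.32 in rat 7, and -2.43 and -2.51 in rat 8. Male 6 was the highest, followed by female 4 and males 5 and 1, and the nostrils of a rat lay close together beside these differences, with a spread between nostrils of 0.31. In male 2 and female 7 the probe was not well above background on either array, nor on nostril A of female 3, so that these values are only upper limits. Against the lowest signal that counted as detected on those arrays, male 6 was at least 7.25-fold higher than male 2. It was at least 6.4-fold higher than female 7, a pair across the sexes that was not tested. Over the 6 contrasts between rats of one sex the adjusted p was 0.00124. Of the 4 probes past 1%, Fgf17 alone remained so when any one rat was left out, with adjusted p-values from 0.0008 to 0.0073. It was above background on 10 arrays, mostly those of its 4 highest rats, and so entered the test mainly through them. It would not meet a filter of 11 arrays. Values at the floor enter its spread between nostrils, and with a floor at 0.01 of the array median the adjusted p was 0.00417. With slide as a block its adjusted p was 0.0505, over the same neighbouring rats without slide 0.0166, and with normexp 0.000421. Between arrays that were all above background, rat 4 lay 1.68 above nostril B of female 3 on slide 2 and rat 6 lay 1.35 above rat 5 on slide 3. On slide 1 male 1 was at least 2.61-fold higher than male 2. On slide 4 the mean of female 8 (-2.47) lay beside the detection limit of female 7 (-2.51), so no difference between them was measurable there.

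Red cell genes differed between the same animals. Alas2, the first enzyme of heme synthesis in red cell precursors, had log2 levels of 8.51, 6.27, 5.30, 8.76, 8.80, 9.69, 5.08 and 6.37 in rats 1 to 8, and Hbb, the beta chain of hemoglobin, had 8.51, 6.89, 6.18, 8.62, 8.67, 9.13, 5.84 and 6.91. The 4 rats highest in Fgf17 (6, 4, 5 and 1) were the 4 highest in both. Between rats of one sex the adjusted p was 0.000792 for Alas2 and 0.00181 for Hbb, or 0.0529 and 0.0779 with slide as a block. Of 6 blood genes listed, 3 were found by name and all 3 were expressed. Their summed level ran from 7.67 to 10.47 in males and from 6.55 to 9.72 in females. The part of blood in the Fgf17 difference was not tested.

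**Figure D3:**
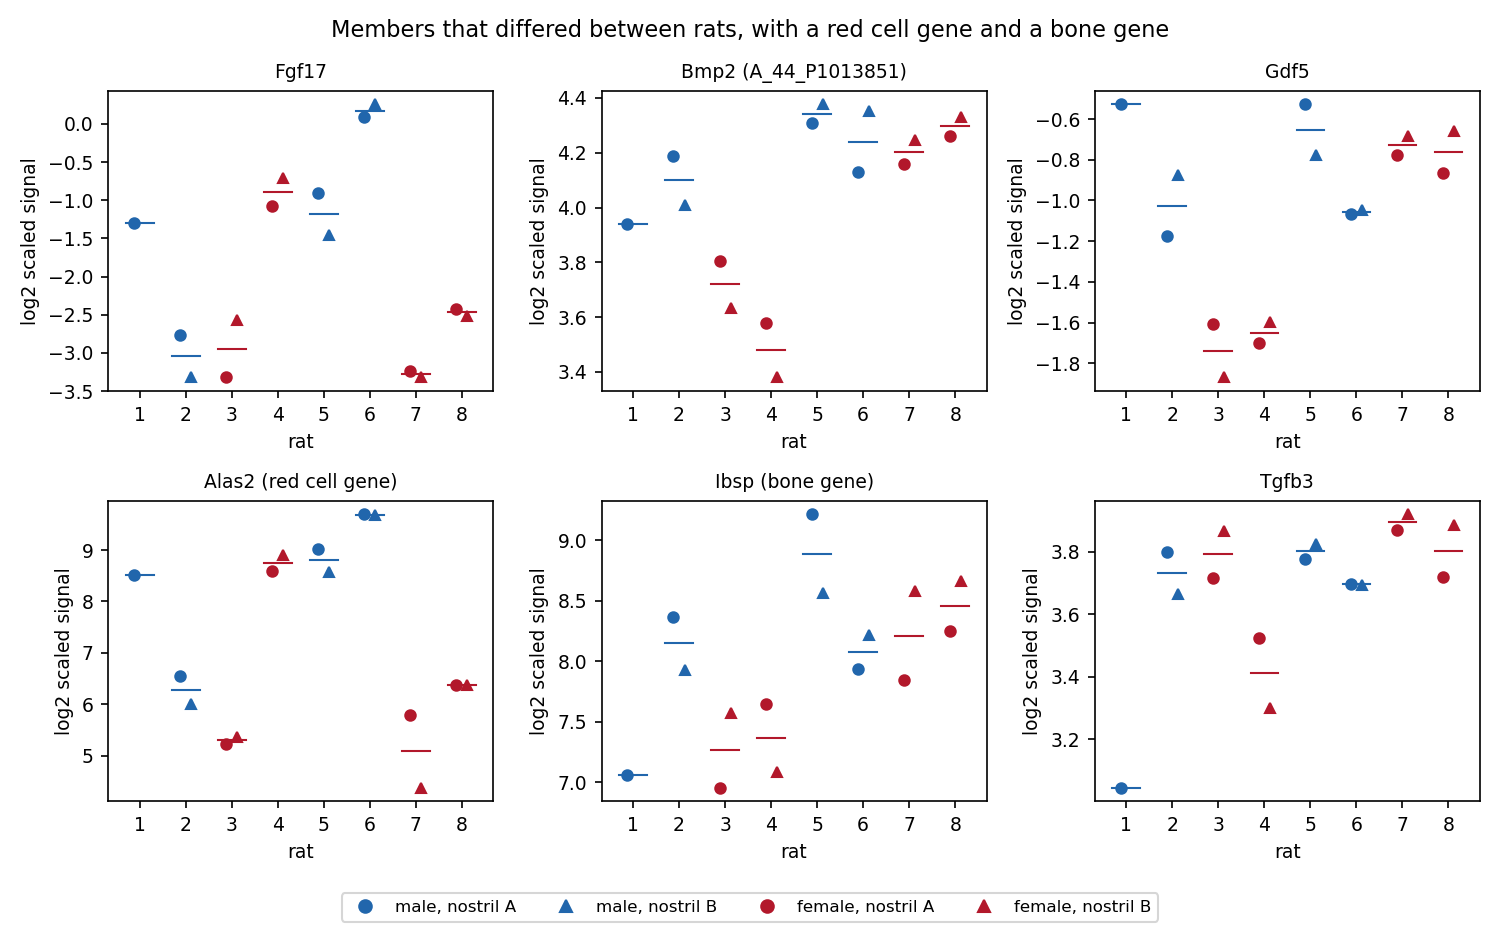
Log2 scaled signal (vertical axes) of the 4 members that differed between rats of one sex at a false discovery rate of 1%, with Alas2 (red cells) and Ibsp (bone), in each of the 8 rats (horizontal axes); circles are nostril A, triangles nostril B and lines the rat mean. Fgf17 and Alas2 were highest in rat 6, Fgf17 was not above background on either array of rats 2 and 7, and Bmp2 was lowest in rats 3 and 4.

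Bmp2, a ligand known for bone formation, was measured by 2 probes. By A_44_P1013851 its rat means were 3.94, 4.10, 4.34 and 4.24 in males 1, 2, 5 and 6, and 3.72, 3.48, 4.20 and 4.30 in females 3, 4, 7 and 8. Females 3 and 4 were the lowest and male 5 the highest, a range of 0.86 or 1.82-fold against a spread between nostrils of 0.11. This range crosses the sexes and was not tested, whereas the contrasts between rats of one sex gave an adjusted p of 0.00594. The second probe, 616 bases away, had its lowest values in the same females (1.04 and 0.96) and an adjusted p of 0.0236. Without rats 4, 5, 7 and 8 in turn, the adjusted p of the first probe rose to 0.0242, 0.0118, 0.0201 and 0.0278. With slide as a block it was 0.577, with normexp background correction 0.379, without the filter on dim probes 0.0183 and over the mean of both probes 0.0111.

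Gdf5, a ligand known from joints, had rat means of -0.53, -1.03, -0.65 and -1.06 in males 1, 2, 5 and 6 and of -1.74, -1.65, -0.73 and -0.76 in females 3, 4, 7 and 8. Females 3 and 4 were again the lowest, 2.32-fold below male 1 at the extremes, a pair across the sexes that was not tested. Over the contrasts between rats of one sex the adjusted p was 0.00986. Leaving out any rat other than male 1 raised the adjusted p above 0.01, to between 0.0133 and 0.0362, and it was 0.287 with slide as a block, 0.409 with normexp and 0.0135 without the filter. A lower floor, the authors' ratio table and the mean over probes of a gene put it just past 0.01, between 0.0101 and 0.0112. Tgfb3, a Tgfb ligand, had rat means of 3.04, 3.73, 3.80 and 3.70 in males 1, 2, 5 and 6 and of 3.79, 3.41, 3.90 and 3.80 in females 3, 4, 7 and 8. Male 1, measured on 1 array, was the lowest, and female 4 came next. The range over the rats was 0.85, and 0.48 without male 1. The adjusted p was 0.00913, 0.0417 without male 1 and 0.0983 with slide as a block. With normexp it was 0.606, without the filter 0.0213 and with probes averaged per gene 0.0102. Without rat 3 it was 0.00752, and without each of the other rats it lay above 0.01, between 0.0121 and 0.0238.

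Bmp1, the procollagen protease, differed at 5% by all 3 probes (adjusted p 0.0205, 0.0249 and 0.0256) and these ran together. By A_44_P757007 its rat means were 6.05, 6.58, 6.92 and 6.55 in males 1, 2, 5 and 6 and 5.91, 6.12, 6.53 and 6.81 in females 3, 4, 7 and 8. Male 5 was the highest and rats 1, 3 and 4 the lowest by each probe, and the range between rats was 1.63, 0.99 and 1.01. The summed level of 5 fibroblast genes, all expressed, was 11.78, 12.38, 12.93 and 12.42 in males 1, 2, 5 and 6 and 11.68, 11.61, 12.38 and 12.40 in females 3, 4, 7 and 8. Ibsp, a matrix protein of bone, gave 7.06, 8.15, 8.89 and 8.08 in the males and 7.26, 7.37, 8.21 and 8.45 in the females in the same order, and the bone list, 3 of whose 6 genes were expressed, summed to between 7.32 and 9.07 in males and between 7.61 and 8.66 in females. Sost and Sp7, markers of bone cells, were above background on 0 arrays. Male 5 was the highest and rats 1, 3 and 4 the lowest in both sums, in which the brightest probes weigh most. Of the 8 fibroblast probes, male 5 was the highest by 8 and rats 1, 3 and 4 the lowest by 7, the exception being Dcn. Of the 3 bone genes each held for 2, as Alpl was highest in female 8 and Dmp1 was lower in male 6 (4.64) than in female 3 (4.76). Bmp2 by A_44_P1013851 was also highest in male 5 and lowest in rats 1, 3 and 4. Gdf5 had another order, as it was highest in male 1 and lower in males 2 and 6 than in females 7 and 8. The part of connective tissue and bone in the Bmp1, Bmp2 and Gdf5 differences was not tested.

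The other members that passed 5% came from several roles. The receptors were Notch3, Notch4, Bmpr2 (both probes), Fzd1, Fzd3, Fzd7 and Tgfbr3, the ligands Jag2, Bmp7, Fgf20 and Fgf22, and Tgfb1i1 is a protein named after Tgfb1. Notch3 and Notch4, both known from blood vessels, ran in opposite order. Notch3 lay between 3.47 and 3.64 in rats 1 to 4 and between 3.69 and 3.95 in rats 5 to 8, and Notch4 between 3.03 and 3.13 in the first and between 2.58 and 2.87 in the second. Rats 1 to 4 lay on slides 1 and 2 and rats 5 to 8 on slides 3 and 4, and 13 member probes (12.4%) did not overlap between these rats, against 11.4% of all probes. The labels do not say whether these 2 sets of rats also differ in supplier. With slide as a block the adjusted p was 0.417 for Notch3 and 0.484 for Notch4. The 2 probes of Bmpr2 gave their highest value in male 1 (1.40 and 3.35), with adjusted p-values of 0.0248 and 0.0199, or 0.572 and 0.487 with slide as a block.

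**Figure D4:**
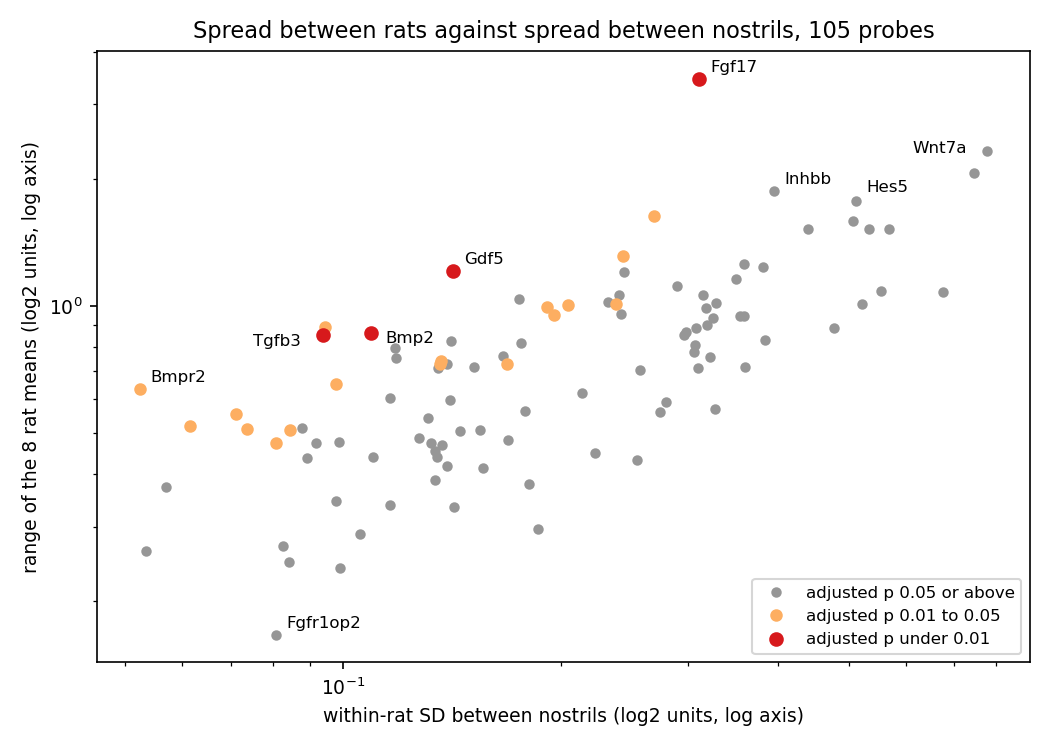
Range of the 8 rat means (vertical axis, log2 units on a log axis) against the spread between the nostrils of a rat (horizontal axis, log2 units on a log axis) for the 105 tested member probes, coloured by adjusted p between rats of one sex. Fgf17 had the widest measured range, 3.45, which reaches a rat not above background and stands for a difference of at least 2.68, whereas Wnt7a, Inhbb and Hes5 combined a wide range with a wide spread between nostrils and did not pass 5%.

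Wide ranges alone did not pass. Wnt7a, a ligand of epithelia, ranged over 2.33 by probe A_44_P623953, from -3.03 in female 7 (not above background) to -0.70 in female 8, but its nostrils also varied by 0.78 and its adjusted p was 0.168. Against the detection limit of female 7 this is at least 3.5-fold. By the probe A_44_P135238, above background on all 15 arrays, the range was 1.52, the spread between nostrils 0.57 and the adjusted p 0.203. Hes5 (range 1.78, adjusted p 0.356) and Dkk1, an inhibitor of Wnt signaling (range 1.59, spread between nostrils 0.51, adjusted p 0.182), were alike in this. At the other end, Fgfr1op2, a gene named after the receptor it is fused with in some blood cancers, ranged over 0.17 between rats by probe A_42_P512252.

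Members with known parts in the upkeep of the olfactory epithelium were examined whatever their values. Gdf11, the ligand that restrains neuron production, ranged over the 15 arrays from 7.39 to 7.89 with a median of 7.67 by one probe and from 1.74 to 2.35 with a median of 2.15 by the other, and its adjusted p between rats was 0.0784 and 0.0924. Fgfr1 stayed between 4.55 and 4.88 (median 4.74), with male 1 the lowest rat, and its adjusted p was 0.367. Bmp4, a ligand that acts on olfactory progenitors, ran from -0.01 to 1.41 (median 0.99), was 0.37 lower in females (SE 0.14, adjusted p 0.225) and had an adjusted p of 0.469 between rats. Its range over the rats was 0.94, and 0.59 without female 4.

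Hes6, a factor of the Hes family that favours neurons, stayed between 7.23 and 7.80 (median 7.55) by one probe and between 6.51 and 7.16 (median 6.84) by the other. Dll1, the Delta ligand of progenitors, had rat means from 0.37 in male 5 to 1.08 in female 4 (adjusted p 0.0877), a range of 0.71 that was 0.47 without female 4. Notch2 ran from 0.53 to 1.53 with a median of 0.75, its 2 highest rats being males 5 (1.21) and 1 (1.19) and its lowest female 7 (0.58), with an adjusted p of 0.238. Male and female values of these 3 genes overlapped.

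Among the Wnt genes, Wnt4 lay between 4.57 and 5.15 (median 4.85) and Wnt5a between -1.58 and -0.42 (median -0.78), with adjusted p-values between rats of 0.226 and 0.192. The inhibitor Sfrp1 lay between 4.29 and 4.91 (median 4.68, adjusted p 0.198). Dkk3 was 1.48 in male 1 and between 1.97 and 2.54 in the 7 other rats (adjusted p 0.0710). Of the Tgfb and activin genes, Tgfb1 ranged from 0.61 in male 1 to 1.81 in male 5 (adjusted p 0.0670), Tgfb2 from 0.56 in male 1 to 1.39 in female 3 (adjusted p 0.105), and Inhba from 1.34 in female 3 to 2.33 in male 2 (adjusted p 0.271). Fgf1 was lowest in male 1 (-1.73) and highest in female 7 (-0.92), with an adjusted p of 0.111, and Fgfr3 ranged over 0.38 between rats (adjusted p 0.364). Without male 1 the range of Fgf1 fell from 0.82 to 0.52, and without male 2 that of Inhba from 0.99 to 0.62. None of these passed 5%, which does not show that the rats were alike in them.

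Where a gene had several expressed probes, their pattern over the 8 rats was compared by Pearson's r, as a description over 8 points that share their arrays. There were 26 such pairs in 18 genes. The median r was 0.74, 10 pairs were above 0.9, 9 between 0 and 0.9 and 7 below 0. The 3 probes of Bmp1 (r 0.97, 0.98 and 0.99) and the expressed probes of Sfrp2, Sfrp4, Sfrp5, Hes6 and Wnt7a ran together. The lowest values were those of Bmpr1a (-0.60), Tgfbr1 (-0.41) and Inhbb (-0.39). The Bmpr1a probes lie 10789 bases apart. By A_44_P357470 the rat means stayed between 4.26 and 4.52, whereas by A_44_P455656 they ran from -0.48 in male 5 to 0.02 in female 4, and the rat that was lowest by the first probe, female 4, was the highest by the second. Without female 4 the range by A_44_P357470 fell from 0.26 to 0.13. For Inhbb, probe A_44_P288117 gave -0.05 in male 1 and between -1.92 and -1.11 in the others, while the 2 other probes put male 1 at 1.57 and 3.56, the lowest or second lowest rat. The range by A_44_P288117 was 1.87, and 0.82 without male 1. In Tgfbr1 the 3 probes ranged over 0.54, 0.30 and 0.45 between rats, against spreads between nostrils of 0.13, 0.19 and 0.22. Without male 1 the first range (A_43_P11556) was 0.35 and the third (A_44_P703479) 0.27, and without female 7 the first was 0.33.

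**Figure D5:**
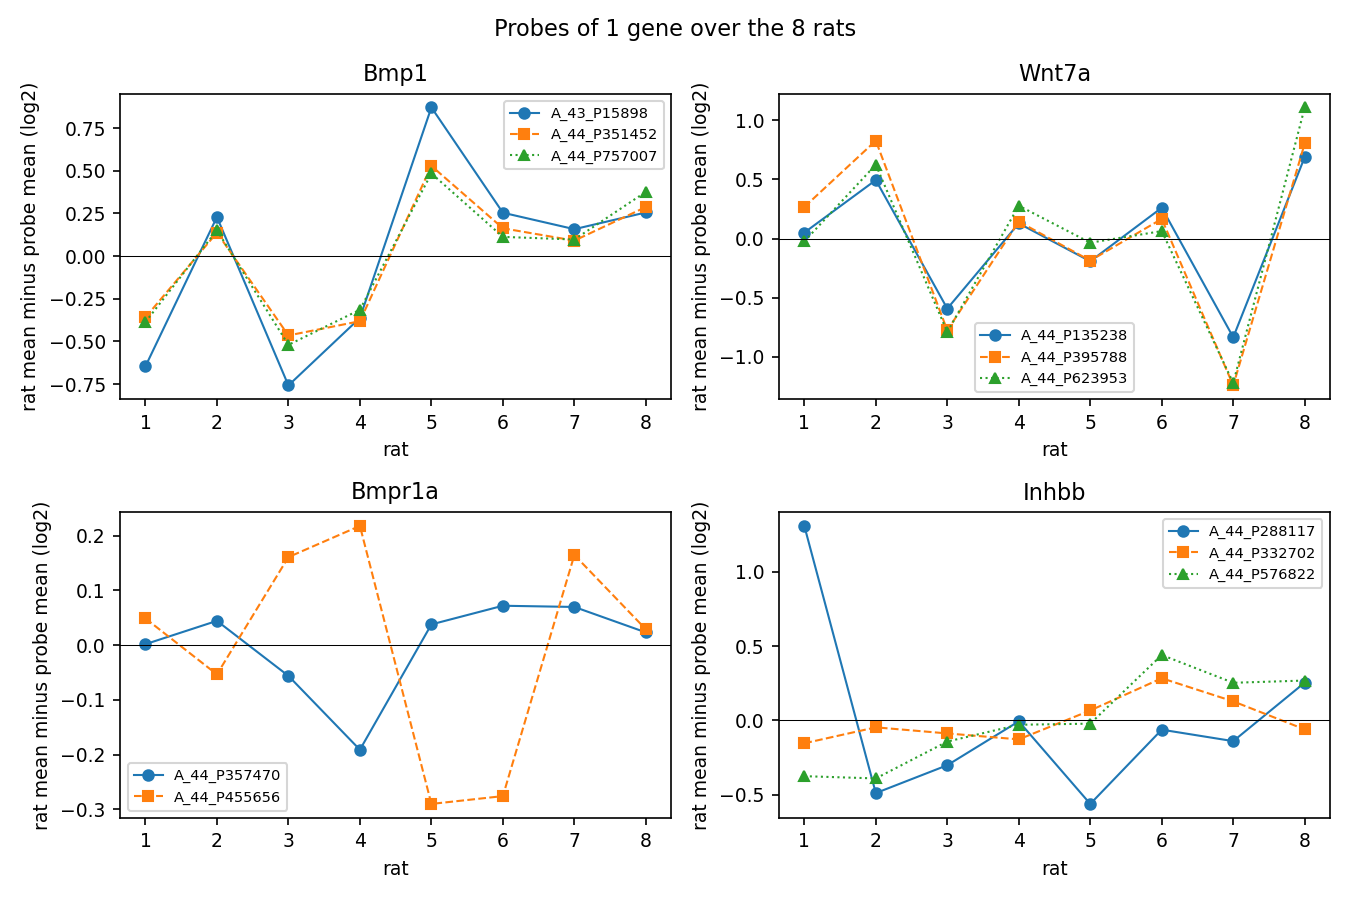
Rat means minus the mean of the probe (vertical axes, log2 units) over the 8 rats (horizontal axes) for the tested probes of Bmp1, Wnt7a, Bmpr1a and Inhbb, one line a probe. The probes of Bmp1 and of Wnt7a ran together, while those of Bmpr1a (r = -0.60) and one probe of Inhbb, high in rat 1, went separate ways.

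Other genes of the 4 pathways (receptors, carriers, inhibitors and targets that the name rule does not take in) were counted from a list of 107, of which 87 were on the array by name and 76 were expressed: 12 of 16 in the Fgf branch, 27 of 31 in the Bmp and Tgfb branch, 19 of 21 in the Wnt branch and 18 of 19 in the Notch branch. Of their 110 tested probes, 0 differed between the sexes at 1% or 5%, at which 0.0434% and 0.0724% of all probes did, and 12 (10.9%) had an unadjusted p under 0.05 against 17.1% of all. Between nostrils 0 differed at 1%, as did 0% of all probes, and 12 (10.9%) had an unadjusted p under 0.05 against 5.89%. Between rats of one sex 7 differed at 1% (6.36%, against 2.79%), 19 at 5% (17.3%, against 16.1%) and 41 at an unadjusted p under 0.05 (37.3%, against 37.1%). With slide as a block 0 differed at 1%, against 0.00363% of all probes.

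The 7 were Smurf2 (a ligase that marks Smads for destruction), Csnk1a1 (a kinase of the beta-catenin destruction complex), Inha (the inhibin alpha subunit), Id4 (a target of Bmp signaling), Etv5 (a target of Fgf signaling), Ctnnb1 (beta-catenin) and Acvr2a (an activin receptor). Inha gave 3.42, 3.16, 3.30 and 3.41 in males 1, 2, 5 and 6 and 2.50, 2.63, 3.17 and 3.20 in females 3, 4, 7 and 8, with the same low females as Bmp2 and Gdf5 (adjusted p 0.00390, with slide as a block 0.296). Etv5 was highest in males 1 (6.19) and 2 (6.22) and lowest in females 3 (5.60) and 4 (5.58) by probe A_44_P635089 (adjusted p 0.00409, with slide as a block 0.223). Its second probe was highest and lowest in the same 4 rats (2.38 and 2.27 against 1.68 and 1.72). Smurf2 lay between 4.08 and 4.21 in rats 1 to 4 and between 3.71 and 3.82 in rats 5 to 8 by probe A_44_P234624, but its probe A_44_P825523 stayed within 0.19 over all rats.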

How the data were processed

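Total RNA of 15 olfactory epithelium samples from 8 rats had been labeled with Cy3 and hybridized one sample to an array on Agilent whole rat genome arrays. Spot intensity values were deposited as the authors extracted them with Feature Extraction 9.5.1.1 (background and spatial trend removed, no scaling between arrays). The authors' ratio table, used as an alternative, equals the signal over the array's median and then over the probe's median: 100% of values of 19037 bright probes came within 2% of this.

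Here spots marked as outliers (61 to 175 an array) were left out, spots of a probe averaged, signals divided by the array median as the study did, floored at 0.1 and taken to log2. Probes well above background on at least 7 arrays were tested, 27625 on rat means (sexes) and 27574 on single arrays (nostrils with rat as a block; rats of one sex). The tool was limma 3.58.1 in R 4.3.3 (lmFit, eBayes with a trend), two-sided, with Benjamini-Hochberg adjustment over all tested probes and a threshold of 1%. The scripts were tested on simulated data. The number of arrays limits the precision. Rats are the replicates, and p-values between rats measure only the spread between nostrils, which are 2 samples of one animal. Gene names, positions and descriptions are those of the array design on rn3. Probe sequences are those of the scanner files.

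The members and the gene lists were chosen with earlier results of these data known. The probes chosen for description were those past 1%, the 4 with the smallest p in each comparison, the tested probes of 30 genes picked for known roles and the 3 genes whose probes disagree most. Of the 30 genes, Fgfr2, Tgfbr2 and Fzd1 are named without their levels. Further members are named by role or call, or as examples chosen after their values were seen. The marker lists covered 14 cell types. Alternatives were 75th percentile or quantile scaling, normexp background correction, the floor, the filter, the ratio table, the slide, the unit of replication, the methods' t-test, other detection calls and leaving out each rat.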

Additional observations from a re-analysis of the deposited data

Results flagged for a closer look

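In each sex the rat farthest from the other 3 was examined for the 48 tested probes chosen for description, which gave 96 groups of 4 rats. In 6 of them (6.2%) its gap to the nearest rat, as a share of the whole range, was above Dixon's 95% critical value for 4 samples, and chance gives about 5% (1 in 20). Each was in the males and 5 were male 1, the rat measured on 1 array only. Bmp7, a ligand of the epithelium, was 2.90 in male 1 and between 3.23 and 3.25 in the other males (share 0.921). Dkk3, a secreted protein of the Dickkopf family, was 1.48 against 2.39 to 2.54 (share 0.856), Tgfb3 was 3.04 against 3.70 to 3.80 (share 0.859), and Hey1, a repressor downstream of Notch, was 2.75 against 2.87 to 2.89 (share 0.876). Tgfbr1, by probe A_43_P11556, was the one that lay higher in male 1, at 0.45 against 0.12 to 0.16 (share 0.883). In male 5, Hes6 by probe A_44_P143922 was 7.75 against 7.55 to 7.58 in the other males (share 0.851). What a single array adds to these values was not tested.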

How the results depend on the processing

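The 0 members past 1% between nostrils stood under every alternative run, as did the 0 between the sexes except that treating the 15 arrays as independent gave 2, among them Hes1 with an adjusted p of 0.0051. The 4 members past 1% between rats became 0 with slide as a block and also 0 over the same neighbouring rats without slide. With no filter 2 members passed, and with normexp 1. In both settings Fgf17 remained of the 4, and Bmp2, Gdf5 and Tgfb3 did not. When one rat was left out, 1 to 5 passed (3, 2, 5, 1, 1, 2, 1 and 1 without rats 1 to 8). Other alternatives gave 3 to 6. With the filter at 11 arrays, which gave 3, Fgf17 was not tested. With probes averaged per gene, Fgf17 alone of the 4 stayed under 0.01. Leaving out one rat gave 0 between the sexes, 0 between nostrils and 76 to 78 expressed genes. The 77 expressed genes were 91 by positive and significant signal, 74 on all 15 arrays, 96 on at least 1 array and 69 when every probe of a gene had to pass. The differences of the 4 probes with the smallest p between the sexes and of the 4 between nostrils kept their sign under the alternatives run, and other differences were not rerun. With normexp 6 of these 8 were smaller by over 1.5 times, and Hes1 (0.39) and Hes5 (-0.78) between the sexes moved less. The normexp setting added an offset of 50 intensity units to every signal, which by itself narrows log2 differences of dim probes. How much of each move it made was not tested. No paired analysis was possible because males and females share no rat number; the nostrils were compared within each rat, and without the rat as a block 0 members passed. Levels near the floor of -3.32 are upper limits.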
